A study of Drosophila melanogaster with 42 samples.

Results

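Cytochrome P450s are heme enzymes that insert 1 oxygen atom into steroids, fatty acids, hydrocarbons and foreign compounds. Members were all probesets that name 1 gene whose symbol is Cyp, a number and a lower-case letter, a rule that uses names and no measured value. It found 83 probesets for 81 genes, out of 18769 probesets and 11982 genes named by 1-gene probesets on the Affymetrix Drosophila 2.0 array. The Cyp6 family held 23 of the genes, Cyp4 22, Cyp12 6 and Cyp9 5, and 25 belonged to other families. By the usual grouping of insect P450s, 37 were of clan 3 (Cyp6, Cyp9 and relatives), 32 of clan 4, 8 mitochondrial and 4 of clan 2.

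In flies, clan 3 and many clan 4 enzymes are known for the breakdown of insecticides and plant compounds in the midgut, the Malpighian tubule (the renal organ) and the fat body. Microsomal P450s take electrons from a reductase and cytochrome b5, and the mitochondrial ones, such as Cyp12, from a ferredoxin chain. The P450s that build the moulting hormone ecdysone carry names of their own (spo, phm, dib, sad, shd), so that the naming rule leaves them out, and those with a probeset used here, which phm has not, are given with the pathway genes at the end.

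The 42 arrays held RNA of whole adult females, pooled at 75 or more flies an extract, in 14 groups of 3 at day 10 or day 40 of adult life. In 1 background, called yw/w1118, all flies carried ELAV-GeneSwitch, a pan-neuronal driver that the drug RU486 switches on, together with either a dSir2 insertion (EP2300) or a dominant-negative p53 transgene (DN-Dmp53). Induced flies of each cross ate RU486 and their controls only its ethanol diluent, and the labels give the diet of both crosses as normal, which in the diet comparison was the high calorie food. The yw/w1118 diet restriction (DR) flies were the uninduced dSir2 cross on low calorie food, and their controls were the same dSir2 control arrays that serve dSir2 overexpression. Canton-S wild-type flies on low and on high calorie food had arrays of their own. None of the 14 groups was fed RU486 with no construct to induce, so that within either cross the drug and the construct cannot be told apart. A change in whole flies may be of any tissue although the driver is neuronal. The labels and the methods call the 3 arrays of a group biological replicates, so p-values measure the spread between these 3.

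Arrays correlated with the rest of their group at 0.995 to 0.999. The induced genes were read first. The probeset of Sirt1, the gene of dSir2, gave 11.63, 11.65 and 11.80 in flies labelled as dSir2 overexpressing and 11.71, 11.99 and 12.04 in their controls at day 10 (change -0.22 on the log2 scale, limma adjusted p = 0.232), and at day 40 it differed by 0.04 (adjusted p = 0.943), so that neither age showed an excess in whole flies. The p53 probeset lay 0.23 higher with DN-Dmp53 at day 10 and 0.22 higher at day 40, with no overlap of the arrays but with adjusted p = 0.223 and 0.304. A list of male accessory gland and testis genes had a mean over 2.2 on 7 arrays of these female samples, between 2.28 and 4.18: Canton-S control day 40 replicates 2 and 3, Canton-S DR day 40 replicate 3, Canton-S DR day 10 replicate 3, DN-Dmp53 day 40 replicates 1 and 3, and dSir2 day 40 replicate 2. On dSir2 day 40 replicate 3 it was 2.16, and on the other arrays at the floor of 2.11. Each result that uses the 7 arrays is also given without them where a count moves by over 1.5 times.

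Expression is given as the deposited log2 value, on which 1 unit is a doubling. The lowest value is 2.11, a floor below which no fall can be seen. Counting a value within 0.01 of the floor as at it, 62 of the 81 P450 genes were above the floor on every array, 15 on some and 4 on none (Cyp28c1, Cyp303a1, Cyp313a2 and Cyp316a1). Cyp303a1, known for sensory bristle development, was among the 4. Others known from larval or cuticle biology lay close to the floor, with Cyp301a1 never above 3.02 and Cyp6t3 never above 3.13. Cyp4d21, a P450 of male courtship, was at the floor on 34 arrays and its highest value, 3.13, was on the Canton-S DR day 40 replicate 3 named above. Because probes differ in brightness, levels are compared only within a gene.

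The group means of Cyp4d14 and Cyp6a2 ranged more widely than those of any other P450, over 6.61 and 6.25 log2 units. The next were Cyp6a23 (3.97), Cyp313a1 (3.96), Cyp9h1 (3.96) and Cyp309a1 (3.90). Their mean within-group SD was 0.26 to 0.59. At the other end of the abundant members stood Cyp4g1, the oenocyte enzyme that makes cuticular hydrocarbons, which lay between 14.71 and 15.41 on all 42 arrays and was called in no comparison.

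Seen over the 14 groups, the median P450 level was lowest in the 3 control groups of day 10, though not in each family. For the 62 genes never at the floor, the median deviation from the own mean over all arrays was -0.60 in dSir2 controls at day 10 and 0.30 at day 40, and -0.47 and -0.05 in Canton-S controls. On low calorie food it was -0.14 and 0.52 in yw/w1118 and 0.09 and 0.28 in Canton-S. Cyp9 ranged from -1.20 in dSir2 controls at day 10 to 0.96 in restricted Canton-S flies at day 40. Cyp6 was also lowest in dSir2 controls at day 10 (-0.45). It stood at 0.20 in Canton-S controls and 0.01 in DN-Dmp53 controls at day 10. In restricted Canton-S flies Cyp6 lay at -0.21 at day 10 and -0.25 at day 40.

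The low calorie diet changed P450s in both directions and not alike in each family. A gene was called when limma gave an adjusted p under 0.05 over all probesets tested and the fold was over 1.5. In yw/w1118 flies at day 10, 25 of 74 tested P450s were called higher and 6 lower, where 17.7% of all genes were called higher and 14.3% lower. In Canton-S flies at day 10, 29 of 76 were higher and 9 lower, against 17.1% and 17.0% of all genes. In Canton-S at day 40, 24 of 75 were higher and 7 lower, against 13.0% and 12.1%. In yw/w1118 at day 40 none of 76 was called, where 0.0725% of all genes were, and 19 P450s (25%) had an unadjusted p under 0.05 against 22.8% of all genes. The median change of the P450s was 0.31, 0.25, 0.26 and 0.17 log2 in these comparisons, in the order yw/w1118 day 10, Canton-S day 10, Canton-S day 40 and yw/w1118 day 40, and that of all genes -0.01 or 0.00. As the RNA is of whole flies, a change of cell numbers and a change of RNA per cell cannot be told apart here.

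**Figure D1:**
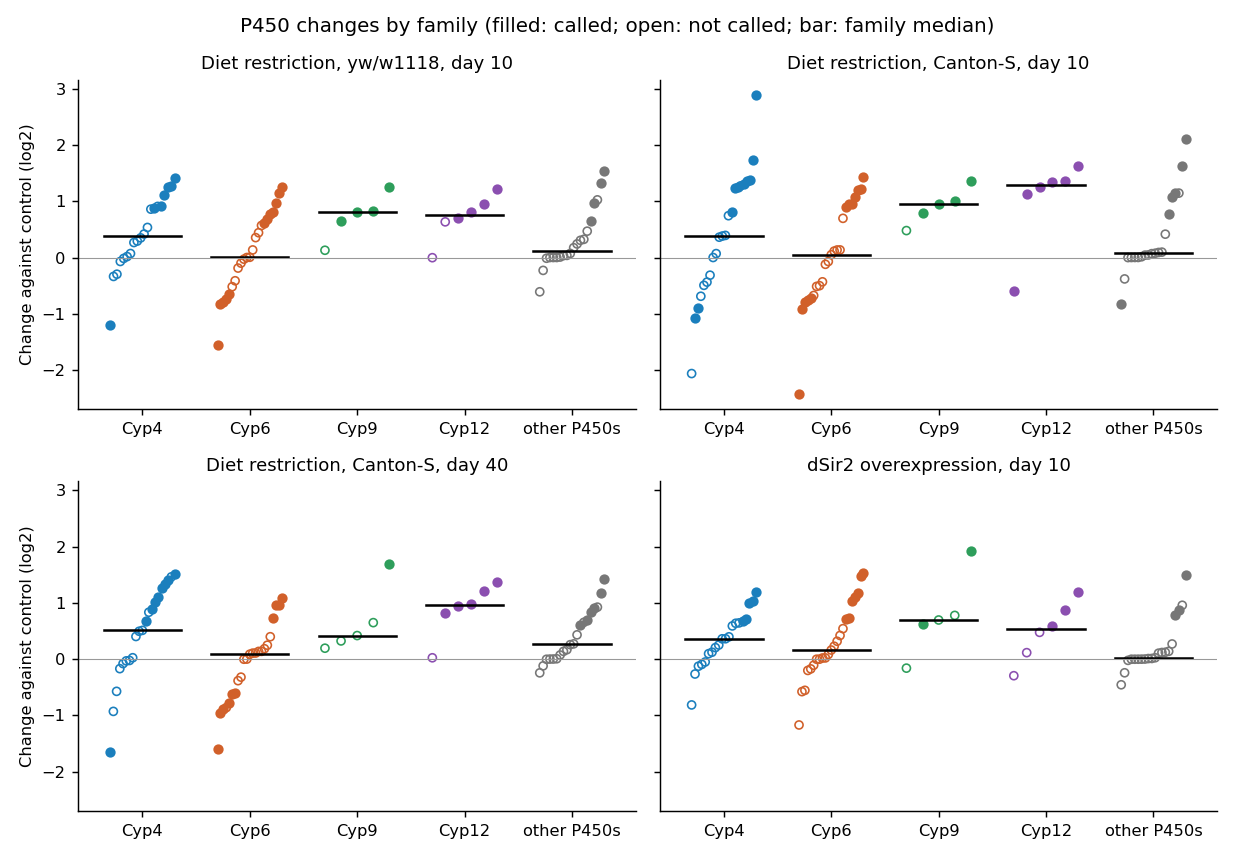
Change of each tested P450 (log2, vertical axis) by family (horizontal axis) under diet restriction and dSir2 overexpression. Each point is 1 gene, filled where it was called, and the black bar is the family median; Cyp9 and Cyp12 medians lie above 0 in all 4 panels while Cyp6 falls on both sides under diet restriction.

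The Cyp9 and Cyp12 genes that were called under DR were higher, with 1 exception. Under DR in yw/w1118 at day 10, 4 of 5 Cyp9 genes and 4 of 6 Cyp12 genes were higher, none lower, and the family medians were 0.81 and 0.76. In Canton-S at day 10 the counts were 4 of 5 and 5 of 6 with medians of 0.96 and 1.29, and 1 Cyp12 gene, Cyp12d1-d, was called lower at values near the floor (2.34 on all 3 DR arrays against 2.85, 2.89 and 3.09). Canton-S at day 40 had 1 of 5 Cyp9 genes higher, Cyp9c1 (6.76, 6.88 and 7.11 against 8.08, 8.55 and 9.19; family median 0.42), and 5 of 6 Cyp12 genes (median 0.97). Cyp12a4, whose excess gives lufenuron resistance, was 10.43, 10.48 and 10.50 in yw/w1118 controls and 11.09, 11.15 and 11.29 with DR at day 10. In Canton-S it was 9.97, 9.99 and 10.33 against 11.11, 11.35 and 11.58, so that DR and control arrays did not overlap in either background. Cyp12b2, whose role in adults is less known, moved likewise, from 6.39, 6.39 and 6.43 to 7.33, 7.71 and 7.81 in yw/w1118 and from 5.70, 5.80 and 5.81 to 7.06, 7.13 and 7.21 in Canton-S.

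More Cyp4 genes were called higher than lower, and most were not called. Of them 6 of 20 were higher and 1 lower in yw/w1118 at day 10, 8 and 2 of 22 in Canton-S at day 10, and 8 and 1 of 21 in Canton-S at day 40, with medians of 0.38, 0.39 and 0.51. The rise of Cyp4ac3 exceeded that of all other P450s in Canton-S at day 10, from 4.45, 4.96 and 5.03 to 7.58, 7.59 and 7.95 (2.89 ± 0.21 SE, 7.44-fold, adjusted p = 0.000861). In yw/w1118 the same gene went from 4.48, 4.53 and 4.63 to 5.01, 5.59 and 5.66, a change of 0.87 that 4 of 6 fits with 1 array left out did not call. Cyp4g15, a P450 known from the nervous system, went from 6.44, 6.48 and 6.55 to 7.61, 7.63 and 7.97 in yw/w1118, a rise by 1.25, and rose by 1.26 and 1.34 in Canton-S at days 10 and 40.

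Cyp6 was split. In yw/w1118 at day 10, 7 of 23 Cyp6 genes were higher and 5 lower with a median of 0.00. In Canton-S the counts were 7 and 5 at day 10 (median 0.05) and 4 and 6 at day 40 (median 0.09). Cyp6w1 was the P450 with the deepest fall at day 10 in both backgrounds. Its controls were 10.96, 11.16 and 11.38 in yw/w1118 and 12.83, 12.89 and 13.03 in Canton-S, and the DR arrays 9.30, 9.70 and 9.81 and 10.25, 10.58 and 10.63. The changes were -1.56 ± 0.18 SE (adjusted p = 0.00279) and -2.43 ± 0.12 SE (5.39-fold, adjusted p = 0.000513). At day 40 Canton-S gave 12.64, 12.73 and 12.90 against 10.89, 11.20 and 11.40, a fall by 1.59, and yw/w1118 gave 12.33, 12.69 and 12.73 against 10.43, 11.09 and 11.25, which was not called (-1.66, adjusted p = 0.0923). DR arrays thus lay below all their controls in the 4 comparisons. Cyp6a19 and Cyp6a22 were called lower in the same 3 comparisons, by 0.74 to 0.91 and by 0.72 to 0.95.

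Among the other families 4 of 20 genes were higher in yw/w1118 at day 10, 5 of 20 in Canton-S at day 10 and 6 of 20 in Canton-S at day 40, and 1 was lower, Cyp309a2 in Canton-S at day 10 (-0.83). Cyp28a5, of the family that other Drosophila species use against cactus alkaloids, rose from 7.85, 8.15 and 8.26 to 9.34, 9.46 and 9.46 in yw/w1118 at day 10. In Canton-S it rose from 7.86, 8.01 and 8.15 to 10.06, 10.08 and 10.19 (2.10 ± 0.09 SE, 4.30-fold, adjusted p = 0.000426). Cyp313a1 rose by 1.54 ± 0.06 SE in yw/w1118, above all other P450s there, from 7.89, 8.05 and 8.08 to 9.48, 9.58 and 9.58. In Canton-S at day 10 its controls were more spread, at 4.83, 5.60 and 6.30 against 7.05, 7.14 and 7.45, and the rises were 1.64 at day 10 and 1.42 at day 40. Cyp18a1, which inactivates ecdysone by 26-hydroxylation, rose by 0.97 in yw/w1118 and by 1.08 and 0.69 in Canton-S at days 10 and 40, and its other probeset by 0.84, 1.15 and 1.21.

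The 2 backgrounds share no arrays, and their calls at day 10 overlapped. Of the 25 P450s called higher in yw/w1118 and the 29 in Canton-S, 21 were in both (84.0% and 72.4% of each list), where over all genes 77.0% and 77.3% were. Among them were 3 Cyp9 genes (Cyp9b1, Cyp9c1 and Cyp9f2), 4 Cyp12 genes (Cyp12a4, Cyp12a5, Cyp12b2 and Cyp12c1), Cyp4ad1, Cyp4p1, Cyp28a5 and Cyp313a1. Of those called lower, 3 were in both (50% of 6 and 33.3% of 9, against 80.5% and 65.9% over all genes), and no P450 was called in opposite directions. Within Canton-S, day 10 and day 40 shared 20 higher calls (69.0% and 83.3% of each list, against 54.1% and 72.6% over all genes) and 6 lower calls (66.7% and 85.7%, against 49.8% and 71.6%), with none opposite. Those 6 were Cyp4e3, Cyp6a2, Cyp6a19, Cyp6a22, Cyp6v1 and Cyp6w1. Cyp4e3, known for permethrin tolerance in the tubule, fell by 0.90 and 1.64 in Canton-S.

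Some markers of P450-rich and other tissues moved in the same comparisons. Lists of fat body, follicle, photoreceptor and neuron genes were also drawn up and are not given here. Malpighian tubule markers were called higher for 3 of 5 genes in yw/w1118 at day 10, 4 of 5 in Canton-S at day 10 and 3 of 5 in Canton-S at day 40. Their mean level was 6.48 to 6.51 in yw/w1118 controls and 7.17 to 7.38 with DR, and in Canton-S at day 10 it was 6.61 to 6.63 and 8.13 to 8.28. Oenocyte markers were higher for 5 of 5, 4 of 5 and 1 of 5 genes, midgut markers for 3 of 7, 2 of 7 and 4 of 7, and muscle markers for 4 of 4, 3 of 4 and 3 of 4. Female germline markers were lower for 5, 6 and 4 of 10, with a mean of 11.47 to 11.56 in yw/w1118 controls against 11.06 to 11.13, and 1 of them was higher in Canton-S at day 40. Their part in the P450 changes was not tested. Among genes with a mean over 6 the median change was -0.17 for all genes and 0.61 for 49 P450s in yw/w1118 at day 10, -0.17 and 0.80 in Canton-S at day 10, and -0.10 and 0.42 at day 40.

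Scaling bears on the split between rises and falls. Centring each array on its median moved the median of all genes by -0.23 in yw/w1118 and -0.31 in Canton-S at day 10 and by -0.16 at day 40, and the P450s by the same amounts. The calls were then 16 higher and 8 lower, 26 and 18, and 21 and 8. Quantile normalization of the values again gave 22 and 6, 22 and 13, and 23 and 5, with P450 medians of 0.06, 0.16 and 0.21, and no called P450 changed its sign under either. The Cyp6 median was -0.23, -0.26 and -0.07 after centring. The count of 31 at Canton-S day 40 fell to 15 without control replicate 2 or 3 and to 20 without DR replicate 3. Without all 3 of them, which are the arrays with male organ signal there, 1 control array against 2 was left and no P450 was called, while all 31 kept their sign.

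In flies labelled as dSir2 overexpressing at day 10, 20 of 74 P450s were called higher and none lower, where 6.47% of all genes were called higher and 5.49% lower. The 20 were 7 of 23 Cyp6, 5 of 20 Cyp4, 3 of 6 Cyp12, 2 of 5 Cyp9 and 3 of 20 others, and 6 P450s (8.11%) lay lower at an unadjusted p under 0.05, against 22.4% of all genes. Cyp9b2 was 10.15, 10.19 and 10.58 in controls and 12.21, 12.23 and 12.27 in induced flies (1.93 ± 0.13 SE, 3.81-fold, adjusted p = 0.00344). Cyp6a23 rose by 1.53 ± 0.16 SE, from 8.86, 9.21 and 9.23 to 10.46, 10.56 and 10.86. Cyp28a5 rose by 1.5, Cyp6a14 by 1.47, Cyp4d14 by 1.20 and Cyp12a5 by 1.19.

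Some members known from insecticide studies, such as Cyp6g1 and Cyp12a4, were among the 20. Others known from such studies were not called, as Cyp6a2 (0.42, limma adjusted p = 0.17) and Cyp4e3 (0.36, limma adjusted p = 0.457). Cyp6g1, whose overexpression gives resistance to DDT and neonicotinoids, was 10.34, 10.41 and 10.45 in controls and 10.99, 11.11 and 11.31 with dSir2, a rise by 0.74 (adjusted p = 0.0108). Cyp6a8, a fatty acid hydroxylase, rose by 1.11, from 9.06, 9.07 and 9.31 to 10.04, 10.15 and 10.59. The diet comparison of the same background uses these control arrays too, and its values stood beside them as 0.65 for Cyp9b2, 0.78 for Cyp6a23 and 1.33 for Cyp28a5. Cyp4d14 fell by 1.21 with diet and rose with dSir2, each against 7.74, 7.75 and 8.0. Markers of the midgut were higher for 3 of 7 genes with dSir2, of the tubule for 1 of 5, of oenocytes for 1 of 5 and of muscle for 2 of 4, and germline markers were lower for 3 of 10; their part was not tested.

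**Figure D2:**
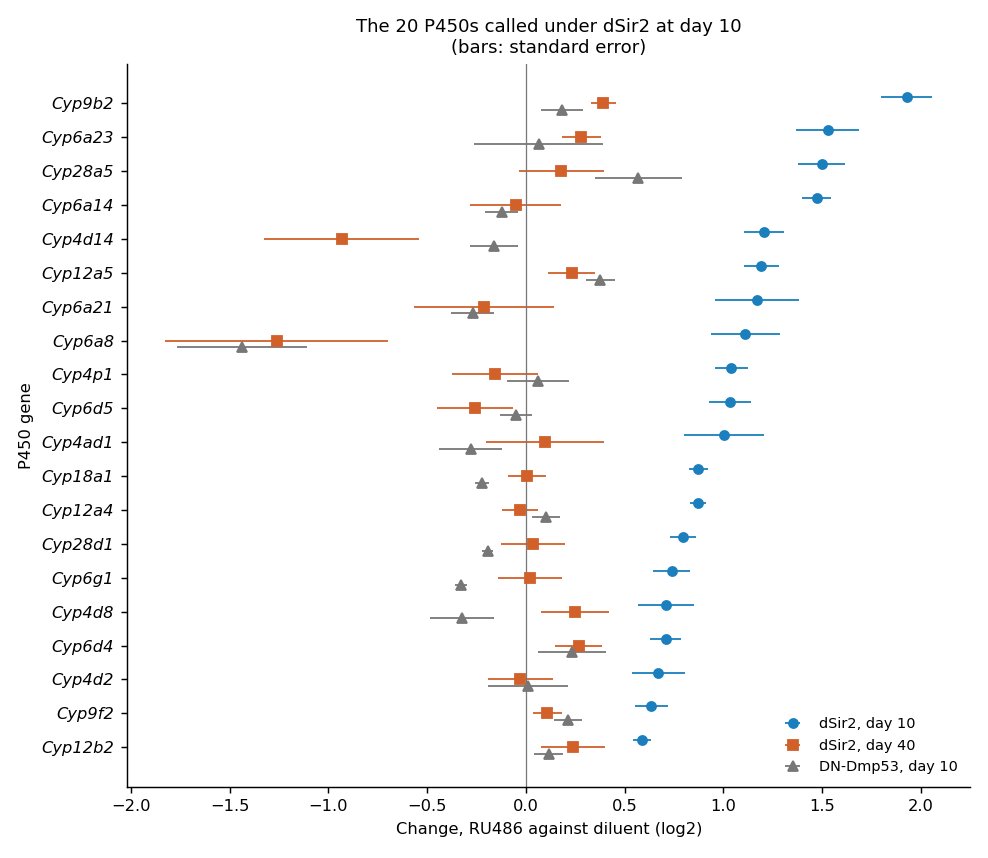
Change between RU486 and diluent (log2, horizontal axis, bars are standard errors) for the 20 P450s called under dSir2 at day 10 (circles), with the same genes under dSir2 at day 40 (squares) and under DN-Dmp53 at day 10 (triangles). The circles lie between 0.59 and 1.93, and the genes were chosen for being called there.

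At day 40 dSir2 changed no P450 by limma (0 of 75, where 0% of all genes were called), and 7 P450s, all higher, had an unadjusted p under 0.05 (9.33%, against 10.8% of all genes, of which 4.98% higher). The difference between the ages was tested as an interaction. The dSir2 effect differed for 11 of 76 P450s, all with a lower signed change at day 40, where 4.25% of all genes were called in either direction. Cyp9b2 led with Cyp4d14 and Cyp6a14. For Cyp9b2 the controls of day 40 were at 12.13, 12.16 and 12.20, close to the induced flies of day 10, and the induced flies of day 40 at 12.43, 12.61 and 12.64, and the change was lower by 1.54 ± 0.15 SE (adjusted p = 0.00377).

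With DN-Dmp53 at day 10, 22 of 76 P450s (28.9%) had an unadjusted limma p under 0.05, against 19.5% of all genes. Those called were 3 higher and 1 lower of 76, where 2.28% of all genes were called in either direction. They were Cyp6a20 by 0.96 (limma adjusted p = 0.0395), Cyp4ac3 by 0.95, Cyp313a1 by 0.59 (adjusted p = 0.00335) and Cyp6a2 by -0.81 (adjusted p = 0.0189). With the replicate number as a block, which pairs these arrays, 1 of them, Cyp313a1, was called. Quantile normalization again gave 0 higher and 2 lower and centring 3 and 2, and no call was kept in all 6 fits that left out 1 array. Those fits called 0 without DN-Dmp53 replicate 1 or 2, 1 without any control replicate and 3 without DN-Dmp53 replicate 3. Cyp6a2, an enzyme that metabolizes DDT, was 10.15, 10.37 and 10.38 in controls and 9.44, 9.45 and 9.59 with DN-Dmp53. At day 40 none of 75 was called, where 0.0104% of all genes were, also with the block, and 12 (16%) had an unadjusted p under 0.05, against 14.6% of all genes. Without control replicate 2, 1 was called. The effect differed by age for Cyp4ac3 and Cyp6a13, of 77 tested, where 1.89% of all genes did. The block kept 1 of these calls, and 1 fit of all 14 groups kept neither.

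Both inductions used RU486, and they share no arrays. The signed change at day 10 was higher with dSir2 than with DN-Dmp53 in 16 of 77 P450s and lower in 1, where 6.65% of all genes differed in either direction. Cyp6a8 differed by 2.55, as it rose by 1.11 with dSir2 and lay at -1.44 with DN-Dmp53 (adjusted p = 0.12). Cyp9b2 differed by 1.75 and Cyp6a14 by 1.59. Cyp313a1 was the exception, with a difference of -1.05 ± 0.17 SE.

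Age raised P450s in each of the 7 conditions more often than it lowered them. From day 10 to day 40, dSir2 control flies had 39 of 74 P450s higher and 5 lower (all genes 14.9% and 17.1%). DN-Dmp53 controls had 22 of 77 higher and 3 lower (11.4% and 10.4%), and Canton-S controls 15 of 74 and 2 (7.25% and 2.34%). Restricted yw/w1118 flies had 17 of 76 higher and 1 lower (3.98% and 4.29%), and restricted Canton-S flies 9 of 76 and 3 (5.91% and 3.48%). Flies with dSir2 had 19 of 76 and 4 (9.54% and 7.52%) and flies with DN-Dmp53 16 of 75 and 1 (7.55% and 3.46%). In 1 fit of all arrays the mean age change was called higher for 27 of 78 P450s and lower for 4, where 9.47% and 4.19% of all genes were, with a median of 0.29 for P450s and 0.00 for all genes.

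**Figure D3:**
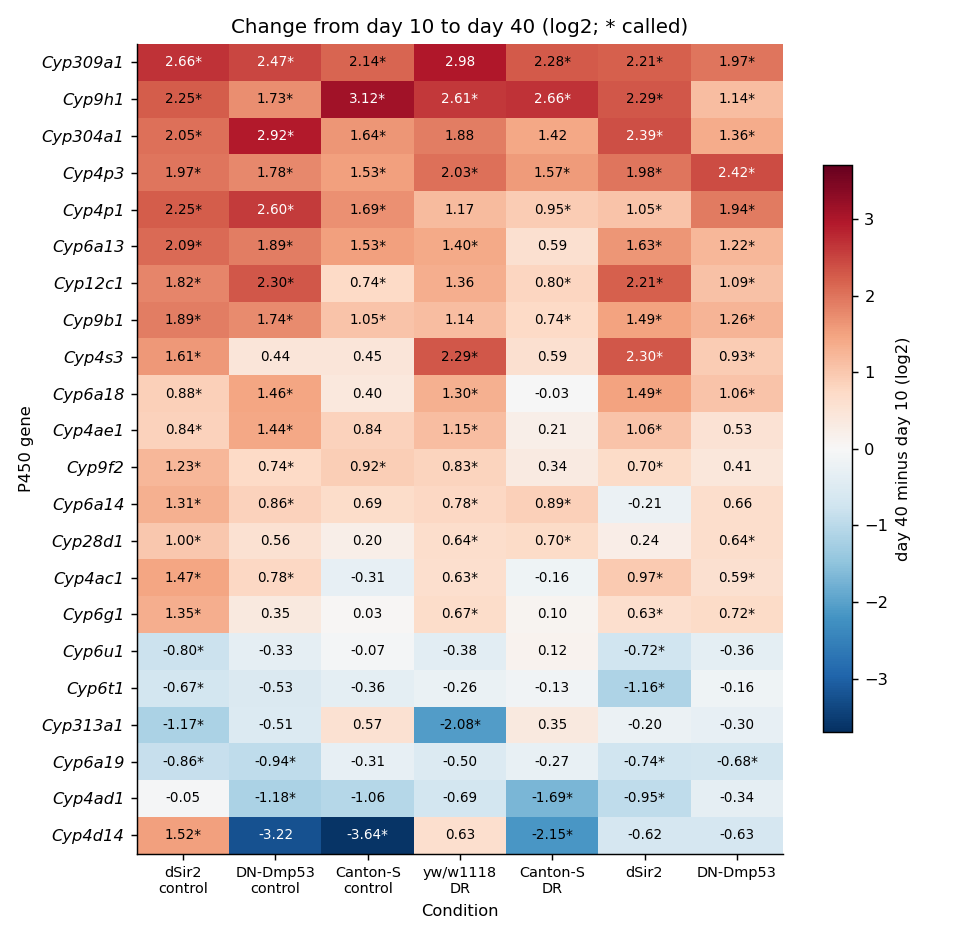
Change from day 10 to day 40 (log2, colour and number) of P450s called higher with age in at least 4 conditions or lower in at least 2, as rows, in the 7 conditions, as columns; a star marks a call. Cyp9h1 and Cyp4p3 carry a star in all 7 columns.

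Cyp9h1 and Cyp4p3 were the P450s called higher in all 7 conditions, 2.78% of those tested in all, where 0.739% of all genes were. Cyp9h1 went from 4.4, 4.59 and 4.83 to 6.69, 6.87 and 7.01 in dSir2 controls and from 3.41, 3.56 and 4.03 to 6.39, 6.82 and 7.16 in Canton-S controls, a rise by 3.12 (8.70-fold). Its mean age change over 7 conditions was 2.26 ± 0.11 SE (adjusted p = 5.46e-16). Cyp4p3 went from 6.92, 6.93 and 7.14 to 8.82, 8.93 and 9.16 in dSir2 controls and from 6.28, 6.75 and 6.91 to 7.80, 8.16 and 8.58 in Canton-S controls. Day 10 and day 40 arrays of both genes were thus apart in both strains. Another 5 genes were called higher in 6 conditions and lay above 0 in all 7 (Cyp309a1, Cyp4p1, Cyp6a13, Cyp9b1 and Cyp12c1). Their mean changes were 2.39, 1.66, 1.48, 1.33 and 1.47. Called higher in 6 or more conditions were 9.72% of the P450s tested in all 7, against 2.58% of all genes. Cyp6a13 went from 7.90, 8.06 and 8.17 to 10.08, 10.13 and 10.20 in dSir2 controls, and its day 10 and day 40 arrays did not overlap. Cyp309a1 went from 4.39, 5.15 and 5.24 to 7.42, 7.63 and 7.71 there, and from 4.39, 4.53 and 4.78 to 6.57, 6.65 and 6.93 in Canton-S controls.

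Of the 72 P450s tested in all 7 conditions, 28 (38.9%) lay above 0 in every one, where 14.6% of all genes did. Below 0 in every one lay 6 (8.33%, against 16.1%), and 21 were called in none (29.2%, against 50.8%). All 5 Cyp9 genes were called higher in dSir2 controls and in Canton-S controls, with medians of 1.86 and 0.96, and in the mean of 7 conditions. Of Cyp6 the mean was higher for 8 of 23 and lower for 1, of Cyp4 for 8 and 3 of 22, of Cyp12 for 2 of 6 and of the others for 4 of 22. Cyp6a19 was the P450 called lower in the most conditions, 4 of 7. It was 13.36, 13.43 and 13.49 at day 10 and 12.48, 12.59 and 12.62 at day 40 in dSir2 controls.

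Age calls rested on the array numbers in several conditions. Of the 17 in Canton-S controls, 2 were kept in all 6 fits that left out 1 array, of the 18 in restricted yw/w1118 flies 2, of the 12 in restricted Canton-S flies 4 and of the 17 with DN-Dmp53 4. Of the 44 in dSir2 controls 36 were kept, of the 25 in DN-Dmp53 controls 19, of the 23 with dSir2 13, and of the 31 in the mean of 7 conditions 29. Without the arrays with male organ signal the calls were 10 in Canton-S controls, 1 in restricted Canton-S flies, 3 with DN-Dmp53 and 30 in the mean, with every sign kept. This leaves 1 array at day 40 in Canton-S controls and with DN-Dmp53, whose spread is then taken from the day 10 arrays. Tubule markers were higher with age for 3 of 5 genes in each of the 3 control groups, and their part was not tested. Germline markers were lower for 5 of 10 in both yw/w1118 control groups, with 1 higher in DN-Dmp53 controls, and for 1 of 10 in Canton-S controls.

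The aged control groups of the 2 crosses share no arrays. Of the 39 P450s called higher in dSir2 controls and the 22 in DN-Dmp53 controls, 19 were in both (48.7% and 86.4% of each list, against 60.9% and 79.4% over all genes). With Canton-S controls, dSir2 controls shared 14 (35.9% of 39 and 93.3% of 15, against 39.3% and 82.4% over all genes), and Cyp4d14 was called in opposite directions. It went from 7.74, 7.75 and 8.0 to 8.87, 9.38 and 9.79 in dSir2 controls, and from 5.58, 7.58 and 8.23 to 3.0, 3.41 and 4.07 in Canton-S controls. In DN-Dmp53 controls at day 40 it was 3.66, 7.47 and 7.78, so that 1 array, replicate 1, stood apart. That array was low in Cyp6a8 as well (5.52 against 8.51 and 9.65).

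Some P450s differed between the strains by more than under diet, construct or age. Canton-S and dSir2 control flies differ in background and in the driver and insertion, which cannot be told apart. At day 10, 11 of 74 P450s were higher in Canton-S and 9 lower (all genes 3.86% and 4.96%), and at day 40, 7 of 75 higher and 18 lower (5.11% and 6.65%), and the ages shared 3 higher calls (27.3% and 42.9% of each list, against 23.6% and 17.4% over all genes) and 6 lower calls (66.7% and 33.3%, against 34.6% and 25.2%). Cyp6a2 was 5.59, 5.61 and 6.07 in dSir2 controls and 11.86, 11.87 and 12.29 in Canton-S controls at day 10 (6.25 ± 0.20 SE, 76.1-fold, adjusted p = 0.000539). Over all ages and treatments its arrays lay between 5.59 and 7.19 in the dSir2 cross, between 8.97 and 10.38 in the DN-Dmp53 cross and between 10.50 and 12.29 in Canton-S, with no overlap. Probe mismatches to a strain's allele were not tested, and the array has 1 probeset for the gene.

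**Figure D4:**
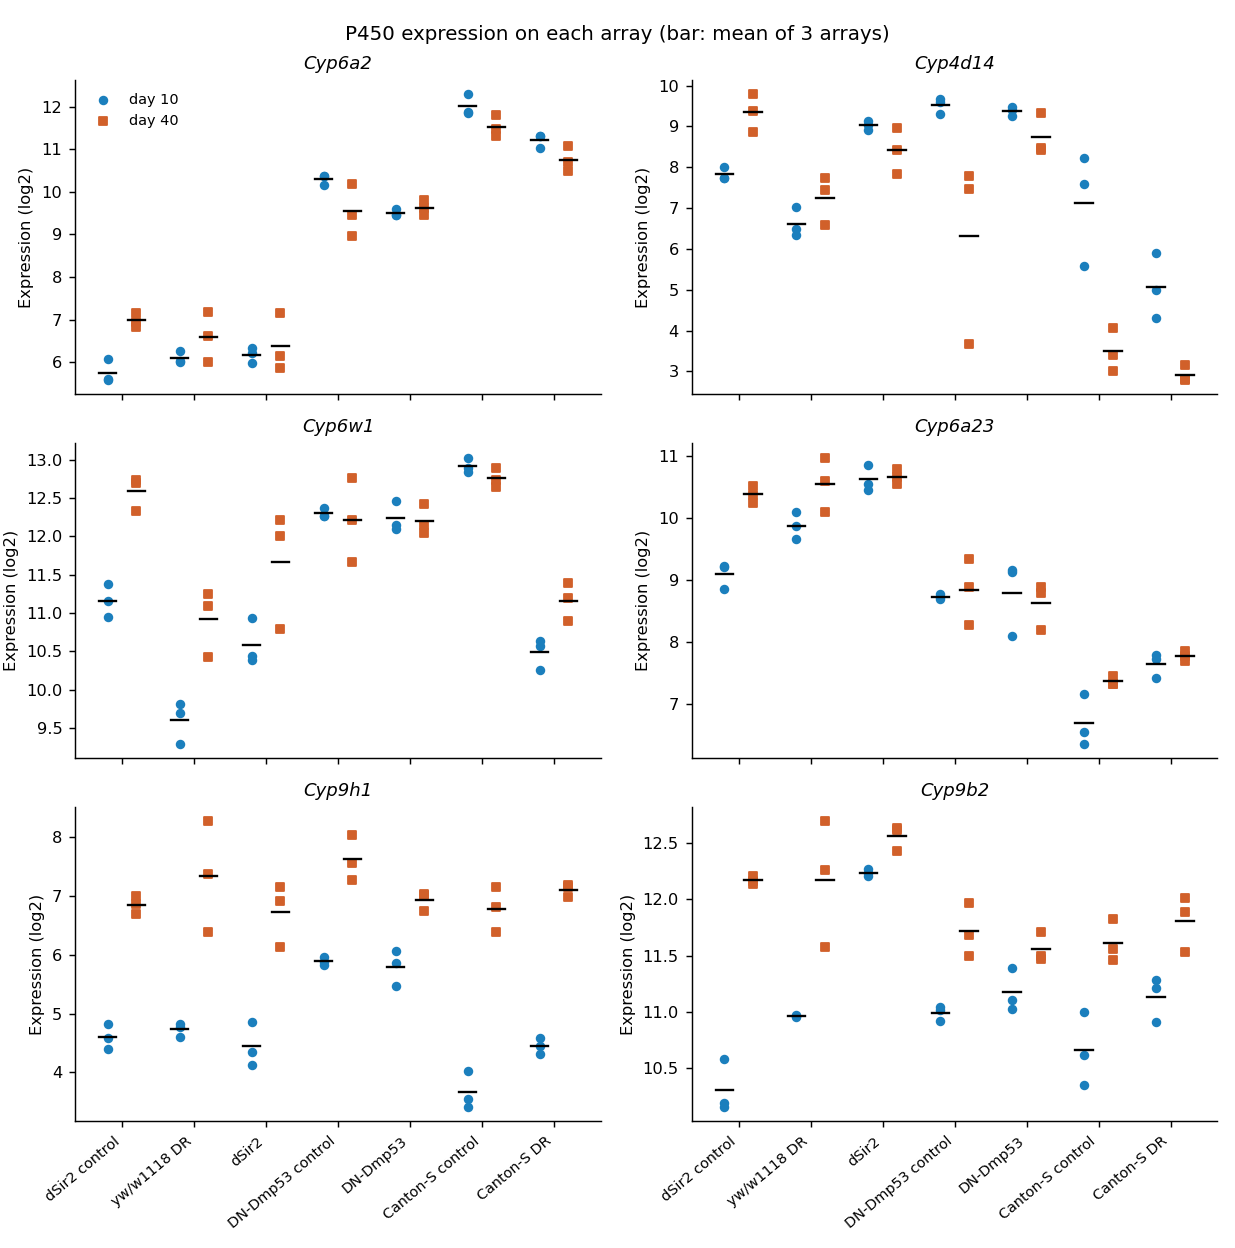
Expression (log2, vertical axis) of 6 P450s on each of the 42 arrays, by condition (horizontal axis), at day 10 (circles) and day 40 (squares), with the mean of 3 arrays as a bar. The Cyp6a2 panel shows 3 separate bands, at 5.59 to 7.19, 8.97 to 10.38 and 10.50 to 12.29, and Cyp6w1 lies lower on restricted food in both backgrounds.

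Other strain differences ran the other way. Cyp6a23 was 8.86, 9.21 and 9.23 in dSir2 controls and 6.36, 6.55 and 7.16 in Canton-S controls at day 10 (-2.41), and the difference was -3.01 at day 40. Cyp6a20, which aggression studies in males brought to notice, was lower in Canton-S by 1.98 and 2.53. Cyp6a17, known from studies of temperature preference, was higher there by 1.37 and 1.39. At day 40 Cyp4d14 was 8.87, 9.38 and 9.79 in dSir2 controls and 3.0, 3.41 and 4.07 in Canton-S controls (-5.85, adjusted p = 0.00367), and Cyp4aa1 lay 3.14 lower. The count of 25 at day 40 was 10 to 16 without dSir2 control replicate 2 or 3 or Canton-S control replicate 2 or 3, and 4 without both Canton-S arrays with male organ signal, with all 25 signs kept and 1 Canton-S array left.

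Whether the backgrounds answered age alike was tested between the controls. The age change differed for 18 of 76 P450s, with a lower signed change in Canton-S for 16 and a higher one for 2, where 16.7% of all genes differed in either direction. Cyp4d14 differed by -5.16 (1.52 in dSir2 controls and -3.64 in Canton-S), Cyp6a8 by -2.57 (1.99 and -0.58) and Cyp4ac1 by -1.78 (1.47 and -0.31). The 2 with a higher value in Canton-S were Cyp313a1 (-1.17 and 0.57) and Cyp6u1 (-0.80 and -0.07). Cyp6w1 rose by 1.42 with age in dSir2 controls and lay at 12.83, 12.89 and 13.03 and then 12.64, 12.73 and 12.90 in Canton-S controls. The diet effect at day 10 differed between backgrounds in 8 of 78 P450s, with a higher signed change in Canton-S for 6 and a lower one for 2, where 3.27% of all genes differed. Cyp4ac3 differed by 2.02 ± 0.29 SE (adjusted p = 0.00791). Cyp6a2 differed by -1.15, with 0.35, which was not called, in yw/w1118 and -0.80 in Canton-S. After centring the 8 split into 4 and 4, and fits that left out 1 array called 2 to 8.

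The diet effect differed with age in 6 of 77 P450s in Canton-S, where 7.76% of all genes differed. Cyp28a5 rose less at day 40 than at day 10 by 1.26 ± 0.24 SE, and Cyp6a20 by 0.69. Cyp309a2 and Cyp4d2 had higher signed changes at day 40, by 1.49 and 1.16, and the fall of Cyp6w1 was shallower by 0.84. The split of 4 positive and 2 negative became 5 and 1 with quantile normalization again and 4 and 1 with centring, and leaving out 1 array gave 1 to 7 calls. In yw/w1118, 1 of 76 differed, Cyp6a20 (-0.87, adjusted p = 0.0195), where 4.99% of all genes did.

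Many P450 genes lie next to each other. By the RefSeq gene table of Release 6, 40 of the 81 fell into 14 runs with gaps under 5000 bases, the longest of 8 Cyp6a genes on arm 2R. Neighbours in that run moved apart under DR. Cyp6a22 and Cyp6a19 were lower in the 3 comparisons with calls, while Cyp6a17 and Cyp6a20 were higher in all 3, by 0.69 to 0.96 and by 0.74 to 1.43, and Cyp6a23 in the 2 of day 10 (0.78 and 0.96). Cyp6a20 was 9.08, 9.15 and 9.19 in yw/w1118 controls and 10.27, 10.41 and 10.50 with DR, and 7.11, 7.14 and 7.23 against 8.47, 8.62 and 8.66 in Canton-S. Cyp6a19, 2 places away, was 13.36, 13.43 and 13.49 against 12.58, 12.61 and 12.87, and 13.09, 13.18 and 13.20 against 12.10, 12.18 and 12.44. The order of the arrays was thus reversed between these genes.

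**Figure D5:**
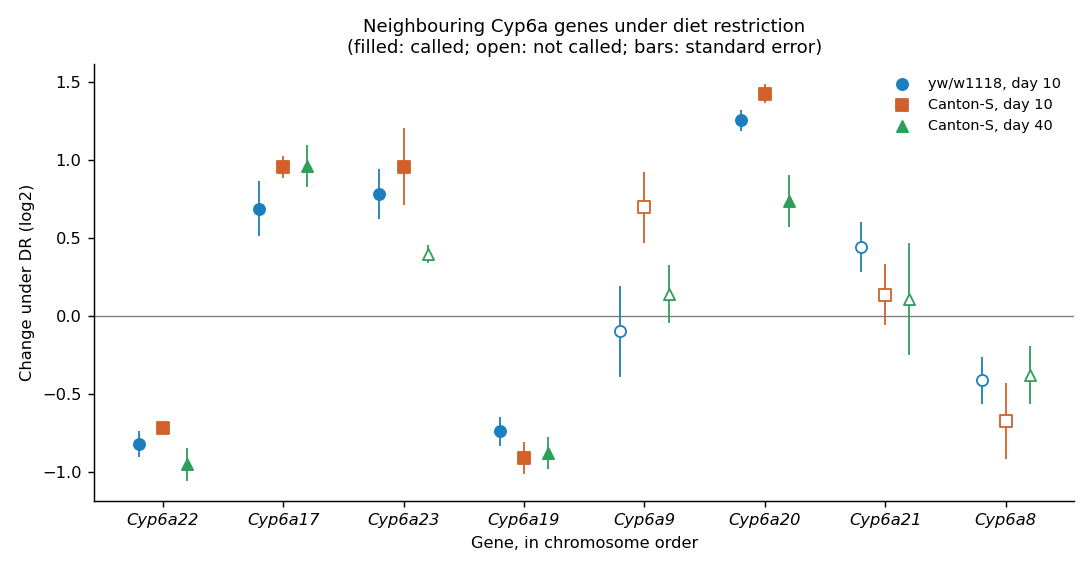
Change under diet restriction (log2, vertical axis, bars are standard errors) of 8 Cyp6a genes in chromosome order (horizontal axis), in yw/w1118 at day 10 and in Canton-S at days 10 and 40; filled symbols are called. Cyp6a22 and Cyp6a19 lie below 0 and Cyp6a17 and Cyp6a20 above 0 in all 3 comparisons.

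Some of the other runs, not all of which are named, moved together in the comparisons given here. Cyp12a5 and Cyp12a4 were both higher under DR in the 3 comparisons with calls, by 0.71 to 1.34. The 3 genes Cyp4p2, Cyp4p1 and Cyp4p3 were all higher under DR in Canton-S at day 10, by 1.24 to 1.37, and 1 of them was in yw/w1118. All 3 were also higher in the mean age change, by 0.85 to 1.90, as were Cyp309a1 and Cyp309a2, by 2.39 and 1.31, and Cyp6a14 and Cyp6a13, by 0.71 and 1.48. In the run of Cyp4d14, Cyp4d2 and Cyp4ae1 the mean age change was lower for the first by 1.16 and higher for the others. The mean of Cyp4d14 joins opposite changes, above 0 in 2 of the 7 conditions and below 0 in 5. It was called higher in 1, the dSir2 controls, and lower in 2. The neighbours Cyp4ad1, Cyp4e2 and Cyp4e1 had mean age changes of -0.85, 0.09 and 0.06. Under dSir2 at day 10 Cyp4p1 was called higher by 1.04, while Cyp4p3 lay at -0.05.

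Some genes of the P450 pathways were called, and the counts of these short lists were not set against the share of all genes. Of 6 measured partners in electron supply and heme turnover, with no probeset used for the reductases Cpr and dare and for Ho, Cyt-b5-r, a cytochrome b5 related protein, was called higher under DR in yw/w1118 (0.65) and with age in 5 of 7 conditions, with a mean age change of 1.03 ± 0.04 SE, and no other partner was called in any comparison. Of 6 regulators, cnc, the fly homologue of Nrf2, rose by 0.64 under DR in Canton-S at day 10, and Hr96, a nuclear receptor of foreign compounds, by 0.68 with age in restricted Canton-S flies. None of Keap1, maf-S, ss and tgo was called. Of 7 ecdysone synthesis genes, none was called under diet, dSir2 or DN-Dmp53. The oxygenase nvd rose with age in dSir2 controls (0.61) and with dSir2 (1.10) and fell in restricted Canton-S flies (-0.91), and its diet effect in Canton-S differed with age by -1.01. At day 40, spo, sro and nvd were lower in Canton-S than in dSir2 controls, by 1.37, 1.44 and 0.75.

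Over the 8 treatment comparisons, Cyp6w1 and Cyp6u1 lay below 0 in 8. Above 0 in 8 lay Cyp4ac1, Cyp4e1, Cyp4g1, Cyp6a17, Cyp6d4, Cyp9c1, Cyp12b2 and, near the floor, Cyp6a16. Cyp12b2, Cyp12a4, Cyp12a5, Cyp18a1, Cyp28a5, Cyp4ad1 and Cyp6a14 were called higher in 4 of the 8, which were 3 diet comparisons and dSir2 at day 10. Cyp313a1 and Cyp6a20 were called higher in 3 diet comparisons and with DN-Dmp53 at day 10. The yw/w1118 diet and dSir2 comparisons share control arrays, so these counts are not independent. How many of all genes were called as often was not counted, so the counts cannot be read as particular to P450s.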

How the data were processed

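RNA of whole female flies was hybridized to Affymetrix Drosophila 2.0 arrays. The authors quantile normalized and GCRMA processed the signals, and the deposited log2 values were used as they stand; their software version is not stated in the labels or methods. Of the probesets, 13647 name 1 gene, 402 several and 4720 none, and 183 control probesets were left out. Genes were named from the platform annotation, and positions were used only for order, from the RefSeq table of Release 6. No sequences were used here. For each gene the probeset with the highest mean over 42 arrays represents it. Cyp12e1 and Cyp18a1 have 2 probesets, and 2 further P450 probesets that name several genes were not used.

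Each comparison was fitted with limma 3.58.1 in R 4.3.3 on its own arrays, without a block. Probesets with a group mean at or below the 25th percentile in every group compared were left out, Benjamini-Hochberg adjustment ran over all others, and a gene was called when its adjusted p fell below 0.05 and its fold exceeded 1.5. Genes named were the best-known members and, with arrays that do not overlap, up to 6 rises and 6 falls per comparison (3 and 3 in interactions). Members and lists were chosen with earlier results of these data known. The fits were tested on simulated data. Correlations of same-numbered arrays over 0.1 in every pair, 0.61, 0.417 and 0.758 at day 10 and 0.295, 0.277 and 0.199 at day 40, paired the DN-Dmp53 arrays, and the block is given beside that result. The number of arrays limits the precision. Alternatives were no filter, a filter at the 50th percentile, all 14 groups in 1 fit, the block, both scalings, the methods' t-test, any probeset, and leaving out arrays; leaving out the 7 with male organ signal, and the comparison of age between backgrounds, were chosen after seeing the data.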

Additional observations from a re-analysis of the deposited data

Results flagged for a closer look

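Differences between groups in the same contrast passed limma's interaction test for the following P450s (log2 differences ± SE, adjusted p over all genes), and each is given as a value with no explanation. The diet effect differed between day 40 and day 10 in yw/w1118 for Cyp6a20 (-0.87 ± 0.16, 0.0195). In Canton-S it differed for Cyp309a2 (1.49 ± 0.34, 0.0291), Cyp4d2 (1.16 ± 0.30, 0.0439), Cyp6w1 (0.84 ± 0.20, 0.0362), Cyp28a5 (-1.26 ± 0.24, 0.0163) and Cyp6a20 (-0.69 ± 0.18, 0.0492). In all, 1 of 76 P450s was called in yw/w1118 and 6 of 77 in Canton-S, where 4.99% and 7.76% of all genes were. Of these calls 0 and 1 were kept in all 12 fits that left out 1 array, and 1 and 2 in 1 fit of all 14 groups.

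The dSir2 effect differed between the ages for Cyp4d14 (-2.14 ± 0.42, 0.0265), Cyp9b2 (-1.54 ± 0.15, 0.00377) and Cyp6a14 (-1.53 ± 0.25, 0.015), and the DN-Dmp53 effect for Cyp4ac3 (-1.22 ± 0.24, 0.0423) and Cyp6a13 (-0.67 ± 0.07, 0.00307). Between dSir2 and DN-Dmp53 at day 10, the difference was 2.55 ± 0.39 for Cyp6a8 (0.00548), 1.75 ± 0.17 for Cyp9b2 (0.000776), 1.59 ± 0.12 for Cyp6a14 (0.000192) and -1.05 ± 0.17 for Cyp313a1 (0.00665). In all, 11 of 76, 2 of 77 and 17 of 77 P450s were called in these tests, where 4.25%, 1.89% and 6.65% of all genes were. Of these calls 6, 1 and 14 were kept in all 12 fits that left out 1 array. In 1 fit of all 14 groups 10, 0 and 12 were kept.

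The diet effect at day 10 differed between Canton-S and yw/w1118 for Cyp4ac3 (2.02 ± 0.29, 0.00791), Cyp4p3 (1.35 ± 0.32, 0.0491), Cyp28a5 (0.77 ± 0.15, 0.0266), Cyp6a2 (-1.15 ± 0.24, 0.0321) and, near the floor, Cyp12d1-d (-0.60 ± 0.12, 0.0305). The age change differed between Canton-S and dSir2 controls for Cyp313a1 (1.73 ± 0.48, 0.0308), Cyp6u1 (0.73 ± 0.06, 0.00014), Cyp4d14 (-5.16 ± 0.87, 0.00375), Cyp6a8 (-2.57) and Cyp4ac1 (-1.78). In all, 8 of 78 P450s were called for diet and 18 of 76 for age, where 3.27% and 16.7% of all genes were. Of these calls 2 and 14 were kept in all 12 fits that left out 1 array, and 2 and 18 in 1 fit of all 14 groups. The groups of 3 are too small for a test of single arrays.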

How the results depend on the processing

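Counts of called P450s kept within 1.5 times under the alternatives, apart from those given here, and no direction reversed. With 3 arrays a group, dim probes at the floor and 1 probeset for most genes limit what can be seen. The cause of each move was not tested, except that leaving out arrays leaves fewer samples. Leaving out each array in turn gave these ranges. Diet restriction had 28 to 31 calls in yw/w1118 at day 10, 0 to 0 at day 40, and in Canton-S 27 to 39 and 15 to 26. dSir2 had 14 to 23 and 0 to 0, and DN-Dmp53 0 to 3 and 0 to 1. Age had 38 to 45 in dSir2 controls, 20 to 28 in DN-Dmp53 controls, 2 to 11 in Canton-S controls, 3 to 27 in restricted yw/w1118 flies, 5 to 10 in restricted Canton-S flies, 15 to 21 with dSir2, 7 to 23 with DN-Dmp53 and 30 to 33 in the mean. Canton-S against dSir2 controls had 15 to 19 at day 10 and 10 to 28 at day 40. The interactions had 0 to 7 for diet by age in yw/w1118, 1 to 7 in Canton-S, 7 to 14 for dSir2 by age, 1 to 3 for DN-Dmp53 by age, 2 to 8 for diet by background, 14 to 19 for dSir2 against DN-Dmp53 and 14 to 20 for age by background.

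Single arrays moved age counts by over 1.5 times. Canton-S controls had 5, 2 and 11 calls without day 10 replicates 1, 2 and 3 and 6, 9 and 6 without those of day 40. Restricted yw/w1118 flies had 5, 4 and 3 without the day 10 replicates and 5 and 10 without day 40 replicates 2 and 3, and restricted Canton-S flies 5, 5 and 6 and, without day 40 replicate 3, 7. dSir2 flies had 15 without day 10 replicate 2, and DN-Dmp53 flies 8 and 7 without day 10 replicates 1 and 2 and 10 and 8 without day 40 replicates 1 and 3.

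Without the filter on low values the calls were 20 for diet in Canton-S at day 40, 2 for DN-Dmp53 at day 10, 5, 7 and 6 for age in Canton-S controls, restricted yw/w1118 and restricted Canton-S flies, 3 for diet by age in Canton-S, 1 for DN-Dmp53 by age and 5 for diet by background. With the filter at the 50th percentile they were 1 for diet in yw/w1118 at day 40, 19 for age in restricted Canton-S flies, 6 for diet by age in yw/w1118 and 4 for DN-Dmp53 by age. With all 14 groups in 1 fit they were 11 for diet in yw/w1118 at day 40, 1 and 4 for DN-Dmp53 at days 10 and 40, 33 and 21 for age in restricted yw/w1118 and Canton-S flies, 6 for diet by age in yw/w1118, 5 for DN-Dmp53 by age and 3 for diet by background.

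Outside the DN-Dmp53 comparison, same-numbered arrays did not correlate over 0.1 in every pair, so they were not taken as paired. Some of these correlations were positive in every pair, as 0.085, 0.117 and 0.181 for age in restricted Canton-S flies. With the replicate block the calls were 1 for DN-Dmp53 at day 10, and for age 14 in DN-Dmp53 controls, 6 in Canton-S controls, 0 in restricted yw/w1118 flies, 2 in restricted Canton-S flies, 10 with dSir2 and 4 with DN-Dmp53. The block gave 12 for Canton-S against dSir2 controls at day 40, 3 for diet by age in Canton-S, 1 for DN-Dmp53 by age and 4 for diet by background. Quantile normalization again gave 2 for DN-Dmp53 at day 10 and 2 for diet by age in yw/w1118. Centring gave 3 for diet in yw/w1118 at day 40, 19 for age in restricted Canton-S flies, 2 for diet by age in yw/w1118 and 6 for DN-Dmp53 by age.

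The methods' t-test gave 3 for diet in yw/w1118 at day 40, 20 in Canton-S at day 40, 1 for dSir2 and 1 for DN-Dmp53 at day 40, and 10 for age in Canton-S controls. Without the arrays with male organ signal, which was chosen after seeing the data and leaves 1 array in the day 40 groups of Canton-S controls and DN-Dmp53 flies, assumed to vary like the others, the calls were 0 for diet in Canton-S at day 40, 10, 1 and 3 for age in Canton-S controls, restricted Canton-S flies and DN-Dmp53 flies, 4 for Canton-S against dSir2 controls at day 40, 3 for diet by age in Canton-S, 4 for DN-Dmp53 by age and 3 for diet by background.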
